A study of Mus musculus with 6 samples.

Results

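Toll-like receptors and the signalling chain that leads from them to NF-kB were followed in mouse liver as a list of 42 genes. The list spans the receptors, their accessory proteins and adaptors, the kinases and ubiquitin ligases downstream, the NF-kB subunits and the inhibitors of NF-kB. Each gene was represented by the probe set that carries its symbol alone, and where a gene had several, by the one with the highest mean. On this rule 36 of the 42 genes had a value, out of 19550 genes in all. Tlr5, Irak4, Traf3, Nfkb1, Chuk and Alpk1 had no such probe set and were not analysed here. Of the 36, 31 passed the filter on dim genes (a mean of at least 0.185, the 25th percentile over all genes) and were tested. Tlr1, Tlr4, Tlr6, Tlr8 and Cd14 did not pass and are given as values.

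The RNA came from whole livers of male mice of the C57BL/6NCrSlc background and was hybridised to 6 Affymetrix arrays, 2 in each of 3 groups. SMP30, also called regucalcin and encoded by Rgn, is the gluconolactonase (GNL) that mice need to make ascorbic acid (AA, vitamin C). The groups were SMP30/GNL knockouts fed a diet that lacks AA (AA-deficient), SMP30/GNL knockouts on that diet with AA in EDTA-stabilised water (AA-supplemented), and wild-type mice on that diet with water that held no AA (wild type). The sources used here do not give age, the length of the diet or the deleted part of the gene. They also do not say whether the AA-deficient knockouts drank water with EDTA, so the supply of AA and of EDTA cannot be told apart. Values are in deposited log units. They are read as log10 wherever a fold is printed, since no source used here states the base. No label states that a group's 2 arrays came from separate mice, so p-values here cover the spread between the arrays alone, and that spread may be technical.

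Toll-like receptors sit on the cell surface or in endosomes and recognise molecules of microbes. Most of them recruit the adaptor MyD88, which assembles IRAK kinases and the ubiquitin ligase TRAF6. TRAF6 activates the TAK1 kinase with its TAB partners, TAK1 activates the IKK complex, and IKK marks the IkB proteins for degradation so that NF-kB dimers enter the nucleus. In liver the pathway is known from Kupffer cells, which meet gut-derived endotoxin, and from hepatocytes, which secrete acute phase proteins. TIFA is an adaptor that oligomerises below the kinase ALPK1, a sensor of bacterial ADP-heptose, and feeds into TRAF6 apart from the receptors.

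The targeted gene checked the labels of genotype, and cannot check which knockouts received AA. Rgn had 0.23 and 0.30 in the AA-deficient group, 0.34 and 0.14 in the AA-supplemented group and 2.07 and 2.0 in the wild-type group. The labelled tissue was checked as well, and 10 hepatocyte markers had a mean value between 2.06 and 2.22 on every array. Across probe sets, arrays of 1 group correlated at 0.965 to 0.975 and arrays of different groups at 0.945 to 0.974. Replicates in AA-supplemented knockouts lay further apart, with an SD of their difference over genes of 0.104, against 0.079 in wild type.

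Promoters are shown for the 2 listed genes that passed the test, Tifa and Nfkbib, and for Nfkbia, whose induction by NF-kB is a textbook feedback loop. The windows run from 250 bases before to 50 bases after a start site, are taken from RefSeq (GRCm38.p6) and read 5′ to 3′ on the strand of the gene. Tifa has 2 start sites, at chr3:127789622-127789921, plus strand, and chr3:127790407-127790706, plus strand. The window of Nfkbib is chr7:28766595-28766894, minus strand, and that of Nfkbia is chr12:55492598-55492897, minus strand. Capitals mark matches to 9 letters of a kappaB-like motif, GGGNNNTTC or its narrower form GGGANTTTC, on either strand.
Tifa, first window: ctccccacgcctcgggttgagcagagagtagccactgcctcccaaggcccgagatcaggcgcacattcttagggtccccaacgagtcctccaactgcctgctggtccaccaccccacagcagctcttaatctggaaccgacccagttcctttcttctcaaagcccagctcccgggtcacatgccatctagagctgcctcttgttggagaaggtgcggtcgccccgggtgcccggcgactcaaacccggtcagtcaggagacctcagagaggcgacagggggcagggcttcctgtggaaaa
Tifa, second window: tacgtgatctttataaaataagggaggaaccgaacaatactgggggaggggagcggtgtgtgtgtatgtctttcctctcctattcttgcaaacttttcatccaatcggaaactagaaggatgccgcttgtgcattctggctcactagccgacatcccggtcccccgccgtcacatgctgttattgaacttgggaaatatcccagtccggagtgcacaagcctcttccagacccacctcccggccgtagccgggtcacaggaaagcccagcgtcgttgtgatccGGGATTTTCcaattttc
Nfkbib: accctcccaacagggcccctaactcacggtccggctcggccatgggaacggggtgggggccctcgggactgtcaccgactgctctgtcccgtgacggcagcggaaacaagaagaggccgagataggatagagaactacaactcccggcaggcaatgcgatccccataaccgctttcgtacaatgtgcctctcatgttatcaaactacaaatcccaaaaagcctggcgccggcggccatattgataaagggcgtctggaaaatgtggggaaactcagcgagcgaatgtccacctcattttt
Nfkbia: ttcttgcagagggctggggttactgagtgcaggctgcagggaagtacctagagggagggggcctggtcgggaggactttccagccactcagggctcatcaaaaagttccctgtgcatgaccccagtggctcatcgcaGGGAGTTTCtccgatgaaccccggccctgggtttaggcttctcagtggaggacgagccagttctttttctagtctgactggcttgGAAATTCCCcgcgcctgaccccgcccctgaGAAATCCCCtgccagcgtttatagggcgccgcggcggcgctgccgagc

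Each narrow match is also a broad one. The second window of Tifa held 1 narrow match, 34 bases into the transcript, and its first window held 0. Nfkbib held 0 matches of either form. Nfkbia held 3 broad matches, of which 2 were narrow. Of the 42 symbols, 31 had windows in the RefSeq table, 44 windows in all, and 19 of these (43.2%) held the broad motif, against 14.0% of all 32851 windows. The narrow form was in 6 of the 44 (13.6%), against 1.11% of all windows. These are matches of letters and no measurement of binding.

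Tifa was the listed gene with the largest change. Tifa (Entrez 211550, probe set 10495967) had 0.32 and 0.43 in the AA-deficient group, 0.91 and 0.90 in the AA-supplemented group and 0.85 and 0.97 in the wild-type group. Both AA-deficient arrays lay far below the other 4, and the arrays of AA-supplemented knockouts lay between those of wild type. It fell by 0.53 in AA-deficient against AA-supplemented knockouts (SE 0.055, 3.39-fold lower, adjusted p = 0.0263 in limma). It fell by 0.54 in AA-deficient knockouts against wild type (SE 0.055, 3.45-fold lower, adjusted p = 0.00625 in limma). The difference between AA-supplemented knockouts and wild type was -0.01 (SE 0.055, adjusted p = 0.979 in limma). These comparisons share arrays and are not independent of each other. By p, Tifa ranked 6th of 14662 genes between the knockout groups and 27th between AA-deficient knockouts and wild type. Its call between the knockouts was lost without AA-deficient array 1 (adjusted p = 0.0596), AA-supplemented array 2 (0.110) or either wild-type array (0.0718), and without the filter on dim genes (0.0899), while the difference stayed between -0.58 and -0.48. Against wild type the call was lost without wild-type array 1 (adjusted p = 0.0554) or wild-type array 2 (0.0679).

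Nfkbib encodes IkB beta, which holds NF-kB dimers in the cytoplasm. Nfkbib (Entrez 18036, probe set 10561516) had 1.35 and 1.33 in the AA-deficient group, 1.55 and 1.61 in the AA-supplemented group and 1.52 and 1.59 in the wild-type group. The AA-deficient arrays again lay below all 4 others. It fell by 0.22 in AA-deficient knockouts against wild type (SE 0.045, 1.65-fold lower, adjusted p = 0.0412 in limma). Between AA-deficient and AA-supplemented knockouts it differed by -0.24 (SE 0.045, 1.73-fold, adjusted p = 0.117), and between AA-supplemented knockouts and wild type by 0.02 (SE 0.045, adjusted p = 0.903 in limma). The call against wild type was lost without any one array of the AA-deficient group (adjusted p = 0.148 and 0.219) or of wild type (0.170 and 0.219), and without the filter on dim genes (0.0884).

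**Figure D1:**
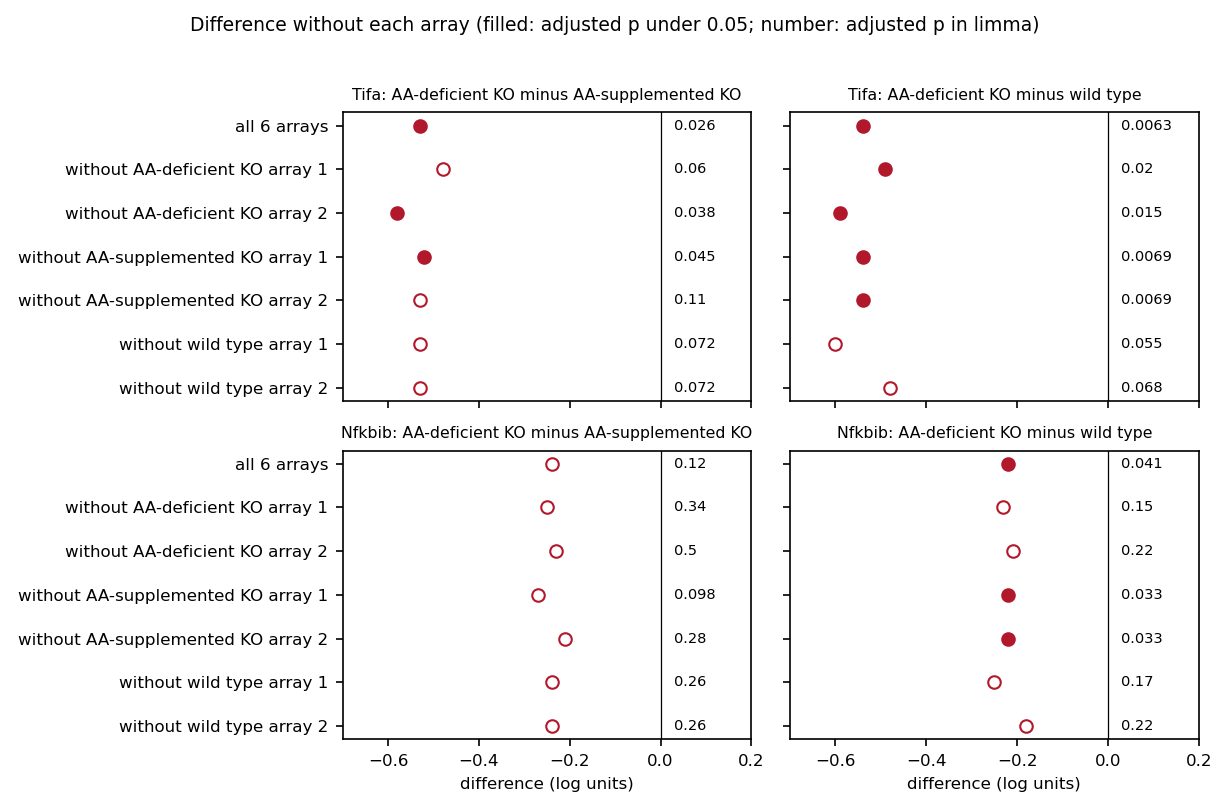
Difference of Tifa (top) and Nfkbib (bottom) in deposited log units, on the horizontal axis, with all 6 arrays and without each array in turn, for AA-deficient minus AA-supplemented knockouts (left) and AA-deficient knockouts minus wild type (right). Filled points have an adjusted p under 0.05, printed beside each point. The difference of Tifa lies between -0.60 and -0.48 in both comparisons, and its points are filled in only some rows.

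Comparing AA-deficient with AA-supplemented knockouts asks what the supply of AA does within 1 genotype. Of the 31 genes tested, 25 were lower and 6 higher in AA-deficient knockouts, with a median difference of -0.053. Of all 14662 genes tested 7334 were higher and 7328 lower, and their median was 3.1e-05. Tifa passed downwards, 1 of 31 where 0.164% of all genes did, and 0 passed upwards, where 0.0409% did. The list was chosen with earlier results of these data known. Here and below, its shares are therefore set beside those of all genes as a description only. At an unadjusted p under 0.05, 10 listed genes were lower and 0 higher, where 4.54% of all genes were lower and 5.38% higher. The groups did not overlap for 15 of the 31 genes downwards (48.4%, against 17.5% of all genes) and for 2 upwards (6.45%, against 19.8%). Without AA-deficient array 1 or AA-supplemented array 1, 20 of the 31 were lower, with medians of -0.037 and -0.068.

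In AA-deficient knockouts against wild type, the loss of the gene and of AA come together. Here 18 of the 31 genes were lower and 13 higher, with a median of -0.0074, against -0.0034 over all genes. The median was -0.037 without wild-type array 1 and -0.033 without AA-deficient array 2, with 21 lower and 10 higher in both. Tifa and Nfkbib passed downwards, 2 of 31 where 1.55% of all genes passed, and 0 passed upwards, where 3.08% of all genes did. At an unadjusted p under 0.05, 4 listed genes were higher and 4 lower, shares near those of all genes (11.8% higher and 8.57% lower). Groups did not overlap for 14 genes downwards (45.2%, against 26.9% of all genes) and 6 upwards (19.4%, against 27.6%). Rel stood just outside the threshold on the higher side (adjusted p = 0.0537).

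AA-supplemented knockouts against wild type compare the genotypes with AA replaced. Of the 31 genes 23 were higher and 8 lower, with a median of 0.056, against -0.0017 over all genes. In limma 0 listed genes passed, where 0.00682% of all genes did, a single gene, and 4 listed genes were higher and 0 lower at an unadjusted p under 0.05, where 6.78% of all genes were higher and 3.84% lower. With a trend in eBayes, 0 listed genes passed as well. Groups did not overlap for 13 genes upwards (41.9%, against 19.8% of all genes) and for 1 downwards (3.23%, against 18.8%). The median was 0.031 without AA-supplemented array 2 and 0.067 without wild-type array 2.

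**Figure D2:**
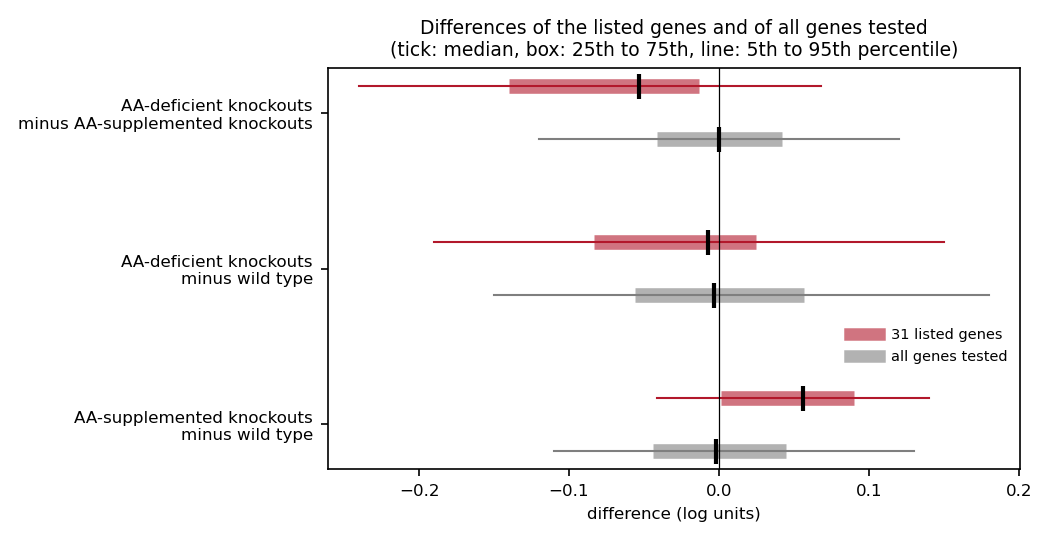
Differences in deposited log units (horizontal axis) of the 31 listed genes tested, in red, and of all 14662 genes tested, in grey, for 3 comparisons. Ticks are medians, boxes run from the 25th to the 75th percentile and lines from the 5th to the 95th. The listed genes lie left of all genes between the knockout groups (median -0.053) and right of them between AA-supplemented knockouts and wild type (median 0.056).

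Among the receptors, 4 of 8 were tested and 0 passed in any comparison. Of all 14662 genes, 30 passed between the knockouts and 679 in AA-deficient knockouts against wild type. In AA-supplemented knockouts against wild type 1 did. Counts of 0 passing, here and for the roles and lists below, are near those shares and are no result about a role. Tlr2, which recognises bacterial lipopeptides together with Tlr1 or Tlr6, had 0.28 and 0.35 in the AA-deficient group, 0.47 and 0.62 in the AA-supplemented group and 0.34 and 0.49 in the wild-type group. The AA-deficient arrays lay below the AA-supplemented ones and overlapped those of wild type. Its difference was -0.23 between the knockouts (SE 0.068, adjusted p = 0.291) and -0.10 between AA-deficient knockouts and wild type (SE 0.068, adjusted p = 0.459). Tlr3, a sensor of double-stranded RNA in endosomes, averaged 0.60 in the AA-deficient group, 0.63 in the AA-supplemented group and 0.61 in the wild-type group. Tlr7, a sensor of single-stranded RNA, differed by -0.05 between the knockouts (SE 0.067). Tlr9, which senses unmethylated CpG DNA, had 0.24 and 0.30 in the AA-deficient group, 0.26 and 0.25 in the AA-supplemented group and 0.16 and 0.15 in the wild-type group. All 4 knockout arrays thus lay above both wild-type arrays for Tlr9. Both wild-type values lay below the filter of 0.185, so Tlr9 passed it only through the knockout arrays. Without detection calls, those wild-type values cannot be separated from background here. The differences of Tlr9 from wild type were 0.11 in AA-deficient (SE 0.042, adjusted p = 0.181) and 0.10 in AA-supplemented knockouts (SE 0.042, adjusted p = 0.456).

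The receptors that were not tested had low values throughout. Tlr4, the endotoxin receptor, averaged 0.15 ± 0.043 in the AA-deficient group, 0.10 ± 0.046 in the AA-supplemented group and 0.05 ± 0.042 in the wild-type group (SD, n = 2 each). Tlr1 averaged 0.18, 0.21 and 0.12 in AA-deficient knockouts, AA-supplemented knockouts and wild type in that order. Tlr6 averaged 0.07, 0.18 and 0.19 in the same order, and Tlr8, another sensor of single-stranded RNA, 0.16, 0.22 and 0.17. Without detection calls, such low values cannot be separated from background here.

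Endotoxin reaches Tlr4 through a relay of secreted and surface proteins. Lbp, the plasma protein that carries endotoxin and an acute phase product of hepatocytes, had 1.69 and 1.71 in the AA-deficient group, 1.79 and 1.97 in the AA-supplemented group and 1.75 and 1.77 in the wild-type group. It was lowest on both AA-deficient arrays and highest on AA-supplemented array 2. The difference of Lbp was -0.18 between the knockouts (SE 0.060, adjusted p = 0.336) and 0.12 between AA-supplemented knockouts and wild type (SE 0.060, adjusted p = 0.533). Ly96, which encodes the MD-2 partner of Tlr4, averaged 1.16 ± 0.019 in the AA-deficient group, 1.31 ± 0.11 in the AA-supplemented group and 1.26 ± 0.048 in the wild-type group (SD, n = 2 each). It was lower on both AA-deficient arrays than on the other 4 and differed by -0.15 between the knockouts (SE 0.058, adjusted p = 0.429). Cd14, the co-receptor that hands endotoxin to the Tlr4 complex, was not tested and had 0.11 and 0.02 in the AA-deficient group, 0.11 and 0.19 in the AA-supplemented group and 0.20 and 0.28 in the wild-type group.

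The 4 adaptors with the TIR domain that couples them to receptors had lower values in the AA-deficient group than in either other group, and 0 passed. Of all genes, 17.5% lay lower without overlap between the knockouts and 26.9% in AA-deficient knockouts against wild type. Their median difference was -0.097 between the knockouts. Myd88, the adaptor of most receptors, had 1.09 and 1.01 in the AA-deficient group, 1.27 and 1.33 in the AA-supplemented group and 1.23 and 1.19 in the wild-type group. The 3 groups did not overlap, with AA-deficient knockouts lowest and AA-supplemented knockouts highest. Its difference was -0.25 between the knockouts (SE 0.046, 1.77-fold, adjusted p = 0.114) and -0.16 between AA-deficient knockouts and wild type (SE 0.046, adjusted p = 0.104). With a trend in eBayes Myd88 passed in both, at an adjusted p of 0.0171 and 0.0291. Tirap, which bridges MyD88 to the membrane, differed by -0.08 between the knockouts (SE 0.043). Ticam1, the TRIF adaptor of Tlr3 and Tlr4, differed by -0.11 (SE 0.043, adjusted p = 0.440), and its bridging partner Ticam2 by -0.08 (SE 0.047). Against wild type these 3 differed by -0.05, -0.03 and -0.10 in AA-deficient knockouts.

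**Figure D3:**
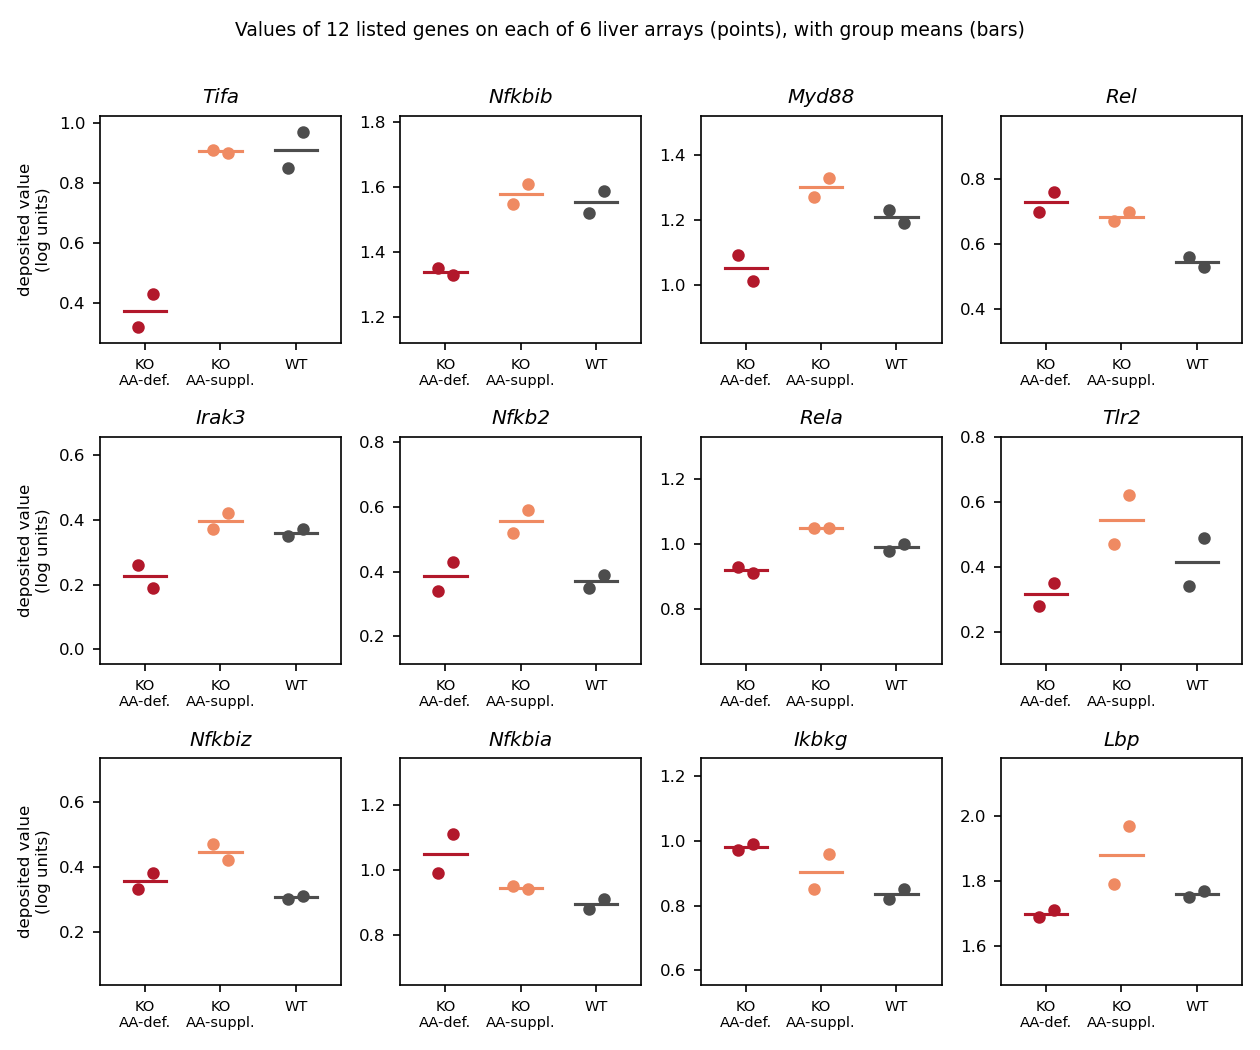
Deposited values (vertical axis, log units, a separate range for each gene) of 12 listed genes on the 2 arrays of AA-deficient knockouts, AA-supplemented knockouts and wild type. Points are arrays and bars are group means. Tifa has 0.32 and 0.43 in AA-deficient knockouts, below 0.85 on every other array.

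IRAK kinases act right below MyD88. Irak3, also called IRAK-M and known as an inhibitor of the pathway in macrophages, had 0.26 and 0.19 in the AA-deficient group, 0.37 and 0.42 in the AA-supplemented group and 0.35 and 0.37 in the wild-type group. Its AA-deficient arrays were the 2 lowest. It differed by -0.17 between the knockouts (SE 0.044, adjusted p = 0.226) and by -0.13 between AA-deficient knockouts and wild type (SE 0.044, adjusted p = 0.143). Irak1 differed by -0.02 and Irak2 by 0.06 between the knockouts (SE 0.041 and 0.052), and in both the knockout groups overlapped.

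Of the TRAF proteins, the TAK1 kinase with its partners and IKK, 0 of 8 genes tested passed in any comparison. Traf6, the ubiquitin ligase on which the MyD88 and TIFA arms meet, averaged 0.75 ± 0.048 in the AA-deficient group, 0.81 ± 0.054 in the AA-supplemented group and 0.75 ± 0.077 in the wild-type group (SD, n = 2 each). Traf1 and Traf2, which act below tumour necrosis factor receptors, differed by -0.06 and 0.01 between the knockouts. Map3k7, which encodes TAK1, averaged 1.10 in the AA-deficient group, 1.11 in the AA-supplemented group and 1.13 in the wild-type group. Its partners Tab1 and Tab2 differed by -0.02 (SE 0.047) and -0.04 (SE 0.050) between the knockouts. Ikbkb, the IKK beta kinase, differed by -0.01 between the knockouts (SE 0.045). Ikbkg, the regulatory subunit NEMO, had 0.97 and 0.99 in the AA-deficient group, 0.85 and 0.96 in the AA-supplemented group and 0.82 and 0.85 in the wild-type group. Both AA-deficient arrays lay above the other 4. Its difference from wild type was 0.15 in AA-deficient knockouts (SE 0.048, adjusted p = 0.133).

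Of the NF-kB subunits 0 of 4 tested passed in any comparison. Rela, the transactivating p65 subunit, had 0.93 and 0.91 in the AA-deficient group, 1.05 and 1.05 in the AA-supplemented group and 0.98 and 1.0 in the wild-type group, 3 groups without overlap. The difference of Rela was -0.13 between the knockouts (SE 0.039, adjusted p = 0.288). Rel, the c-Rel subunit known from lymphocytes and myeloid cells, had 0.70 and 0.76 in the AA-deficient group, 0.67 and 0.70 in the AA-supplemented group and 0.56 and 0.53 in the wild-type group. All 4 knockout arrays of Rel lay above both wild-type arrays. It differed from wild type by 0.18 in AA-deficient (SE 0.043, 1.53-fold, adjusted p = 0.0537) and by 0.14 in AA-supplemented knockouts (SE 0.043, adjusted p = 0.344). In AA-deficient knockouts against wild type Rel passed with a filter at the 50th percentile (adjusted p = 0.0275), with a trend in eBayes (0.0311), with a trend and robust fit (0.0308) and without the AA-supplemented arrays (0.0461). Nfkb2, the p100 precursor of the non-canonical pathway, had 0.34 and 0.43 in the AA-deficient group, 0.52 and 0.59 in the AA-supplemented group and 0.35 and 0.39 in the wild-type group. It was highest on both AA-supplemented arrays, with a difference of 0.18 between AA-supplemented knockouts and wild type (SE 0.049, adjusted p = 0.288) and of -0.16 between the knockouts (SE 0.049, adjusted p = 0.288). Relb, its partner, averaged 0.28 in the AA-deficient group, 0.32 in the AA-supplemented group and 0.25 in the wild-type group.

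Of the 5 inhibitors tested, Nfkbib passed and the other 4 did not. Nfkbia, which encodes IkB alpha, had 0.99 and 1.11 in the AA-deficient group, 0.95 and 0.94 in the AA-supplemented group and 0.88 and 0.91 in the wild-type group. Its AA-deficient arrays were the 2 highest, opposite to those of Nfkbib, and the 3 groups did not overlap. The difference of Nfkbia was 0.11 between the knockouts (SE 0.050, adjusted p = 0.538) and 0.16 between AA-deficient knockouts and wild type (SE 0.050, adjusted p = 0.129, and 0.0475 with a trend and robust fit). Nfkbiz, an atypical nuclear IkB that NF-kB needs at a set of late target genes, had 0.33 and 0.38 in the AA-deficient group, 0.47 and 0.42 in the AA-supplemented group and 0.30 and 0.31 in the wild-type group. It was highest in AA-supplemented knockouts, by 0.14 against wild type (SE 0.043, adjusted p = 0.344). Nfkbie, IkB epsilon, differed from wild type by -0.10 in AA-deficient knockouts (SE 0.048, adjusted p = 0.309). Tnfaip3, the ubiquitin-editing enzyme A20 that ends NF-kB signalling, averaged 0.32 in the AA-deficient group, 0.37 in the AA-supplemented group and 0.30 in the wild-type group, and its groups overlapped in each comparison.

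**Figure D4:**
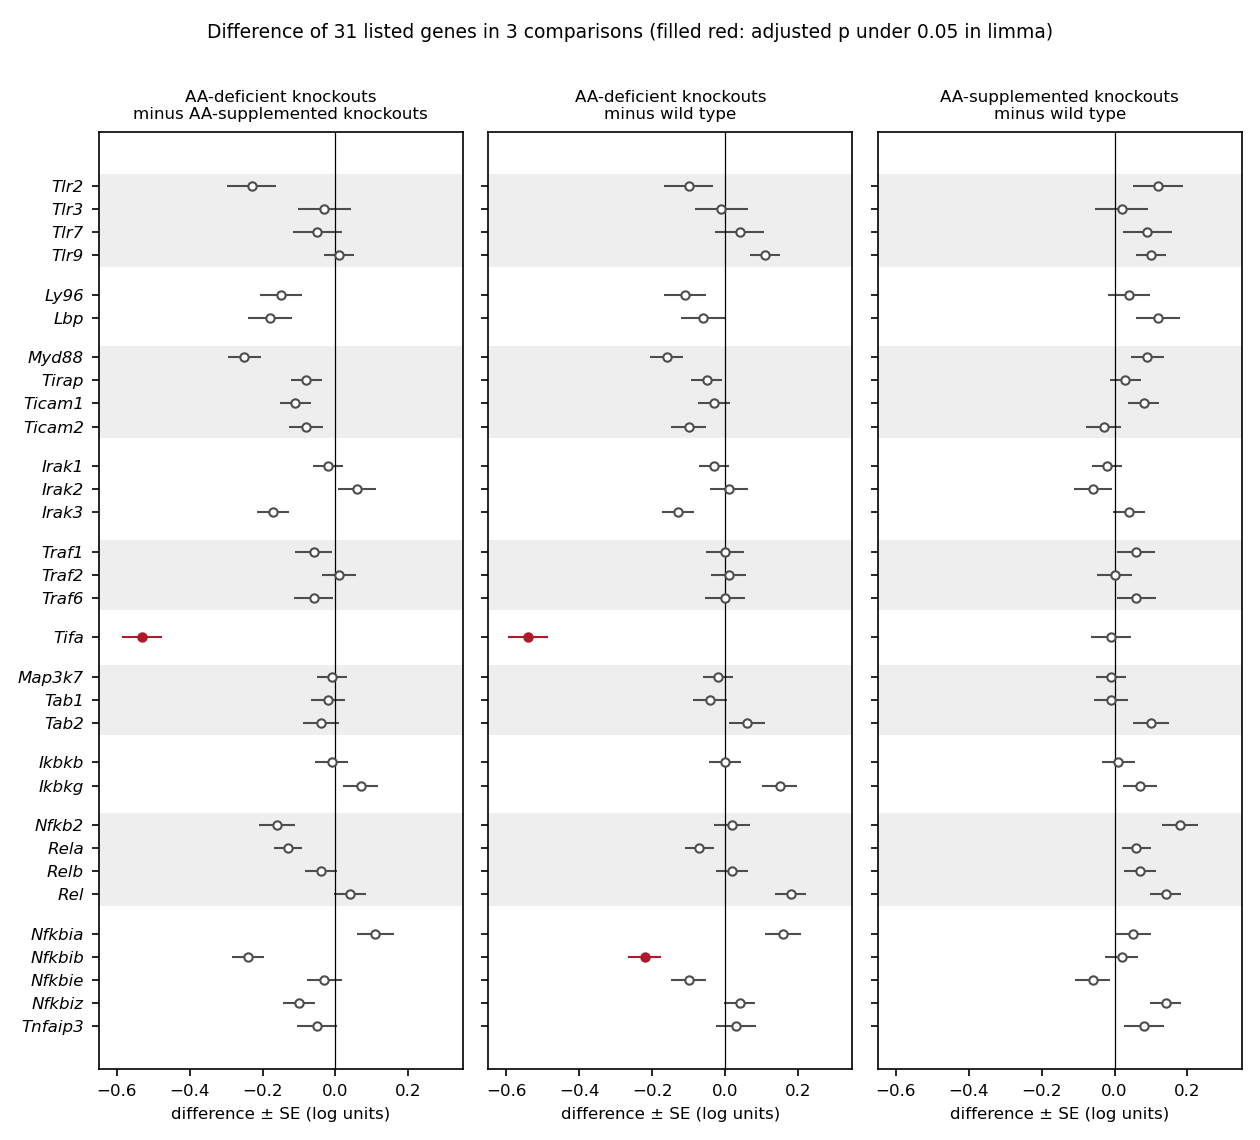
Difference and standard error (horizontal axis, deposited log units) of the 31 listed genes tested, from receptors at the top to inhibitors at the bottom, with shading that alternates by role, for 3 comparisons. Filled red points passed at an adjusted p under 0.05 in limma: Tifa in both comparisons of AA-deficient knockouts and Nfkbib against wild type.

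Other genes of the same pathways, 51 in number on the list and 41 of them tested, held 0 that passed in any comparison in limma. Between the knockouts 29 were lower and 12 higher, with a median of -0.012. At an unadjusted p under 0.05, 6 of the 41 were lower and 0 higher, where 4.54% of all genes were lower and 5.38% higher. Without AA-supplemented array 1 the split was 20 lower and 21 higher, with a median of 0.014, and without AA-supplemented array 2 the median was -0.043. Tlr13, a sensor of bacterial ribosomal RNA in mice, had 0.21 and 0.25 in the AA-deficient group, 0.45 and 0.40 in the AA-supplemented group and 0.33 and 0.32 in the wild-type group, 3 groups without overlap (difference between the knockouts -0.19, SE 0.042, adjusted p = 0.168). The other named genes of this list had their lowest values on the AA-deficient arrays. The transcription factor Irf5 differed from wild type by -0.21 in AA-deficient knockouts (SE 0.052, adjusted p = 0.0594), and the tumour necrosis factor receptor Tnfrsf1a by -0.20 (SE 0.047, adjusted p = 0.0548). Otulin, a deubiquitinase of linear ubiquitin chains, differed by -0.18 (SE 0.049, adjusted p = 0.0792).

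Genes known as targets of NF-kB were tested for 23 of 33 listed. Between the knockouts 20 were lower and 3 higher, with a median of -0.068 and 0 past the threshold in limma. At an unadjusted p under 0.05, 6 of 23 were lower and 0 higher, where 4.54% and 5.38% of all genes were. In AA-supplemented knockouts against wild type 22 were higher and 1 lower, with a median of 0.074 and 0 past the threshold. Unadjusted, 6 of 23 were higher and 0 lower, where 6.78% and 3.84% of all genes were. Without AA-supplemented array 2 the genes lower between the knockouts numbered 18, with a median of -0.029. Those higher in AA-supplemented knockouts against wild type numbered 16, with a median of 0.040. Without AA-supplemented array 1 the medians were -0.11 and 0.12. In AA-deficient knockouts against wild type 14 were lower and 9 higher, and 1 of 23 passed downwards, where 1.55% of all genes did. That gene was Lcn2, which encodes the siderophore-binding lipocalin 2. Lcn2 had 0.95 and 1.13 in the AA-deficient group, 1.66 and 2.0 in the AA-supplemented group and 1.58 and 1.88 in the wild-type group, and fell by 0.69 in AA-deficient knockouts against wild type (SE 0.13, adjusted p = 0.0316 in limma). Its call was lost without either AA-deficient array (adjusted p = 0.0969 and 0.0588), without either wild-type array (0.120 and 0.179), without the filter (0.0717) and with a trend and robust fit (0.137). Saa3, an inducible serum amyloid, had 0.35 and 0.83 in the AA-deficient group, 1.17 and 1.76 in the AA-supplemented group and 0.72 and 1.06 in the wild-type group, so its replicates lay far apart. The chemokines Cxcl10 and Ccl20 had their lowest values in wild type. Cxcl10, which interferons induce as well, had 0.57 and 0.83 in the AA-deficient group, 0.43 and 0.73 in the AA-supplemented group and 0.34 and 0.17 in the wild-type group, higher on all 4 knockout arrays (0.44 in AA-deficient knockouts against wild type, SE 0.11, adjusted p = 0.0710). Ccl20 was also higher on all 4 knockout arrays, by 0.26 in AA-supplemented knockouts against wild type (SE 0.058, adjusted p = 0.194).

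Several listed genes are known from immune cells, and in whole liver fewer cells of a type and less RNA per cell cannot be told apart. The 14 Kupffer cell and macrophage markers had a mean of 0.942 and 1.028 on the AA-deficient arrays, 1.005 and 0.897 on the AA-supplemented arrays and 0.910 and 0.939 in wild type. The knockout groups overlapped, and the median difference between them was 0.041 with 0 past the threshold. It was -0.0087 with AA-deficient array 2 left out and -0.028 with AA-supplemented array 2 left out. Against wild type all 14 were higher in AA-deficient knockouts (median 0.041), where 48.5% of all genes were. Without AA-deficient array 2, 7 were higher and 7 lower against wild type (median -0.0025). Slc40a1, the iron exporter ferroportin, was the one marker that passed, up by 0.21 in AA-deficient knockouts against wild type (SE 0.043, adjusted p = 0.0418 in limma). That was 1 of 14 where 3.08% of all genes passed upwards, and Cd68, Csf1r and Marco did not pass. The 9 neutrophil and monocyte markers had a mean of 0.107 and 0.117 on the AA-deficient arrays, 0.221 and 0.277 on the AA-supplemented arrays and 0.197 and 0.173 in wild type. This order of the means, AA-deficient lowest and AA-supplemented highest, is that of Myd88, Rela and Tlr13, and its part in those values was not tested. Only 4 of the 9 were bright enough to be tested, Retnlg, Csf3r, S100a9 and Ccr2, with 0 past the threshold. Of these 4, 2 were higher and 2 lower in AA-deficient knockouts against wild type (median 0.024), where the median over all 9 was -0.11. The order of the means thus rests on markers below the filter, and not all of them followed it. S100a8 averaged 0.02, 0.26 and 0.14 in AA-deficient knockouts, AA-supplemented knockouts and wild type, and followed it. So did Itgam, with 0.11, 0.25 and 0.17, and Cxcr2, with -0.08, 0.21 and 0.10. Ly6g and Mpo did not. Ly6g averaged 0.11, 0.15 and 0.27 in AA-deficient knockouts, AA-supplemented knockouts and wild type. In the same order the granule gene Mpo averaged -0.07, -0.01 and 0.04, between -0.08 and 0.10 on all arrays.

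**Figure D5:**
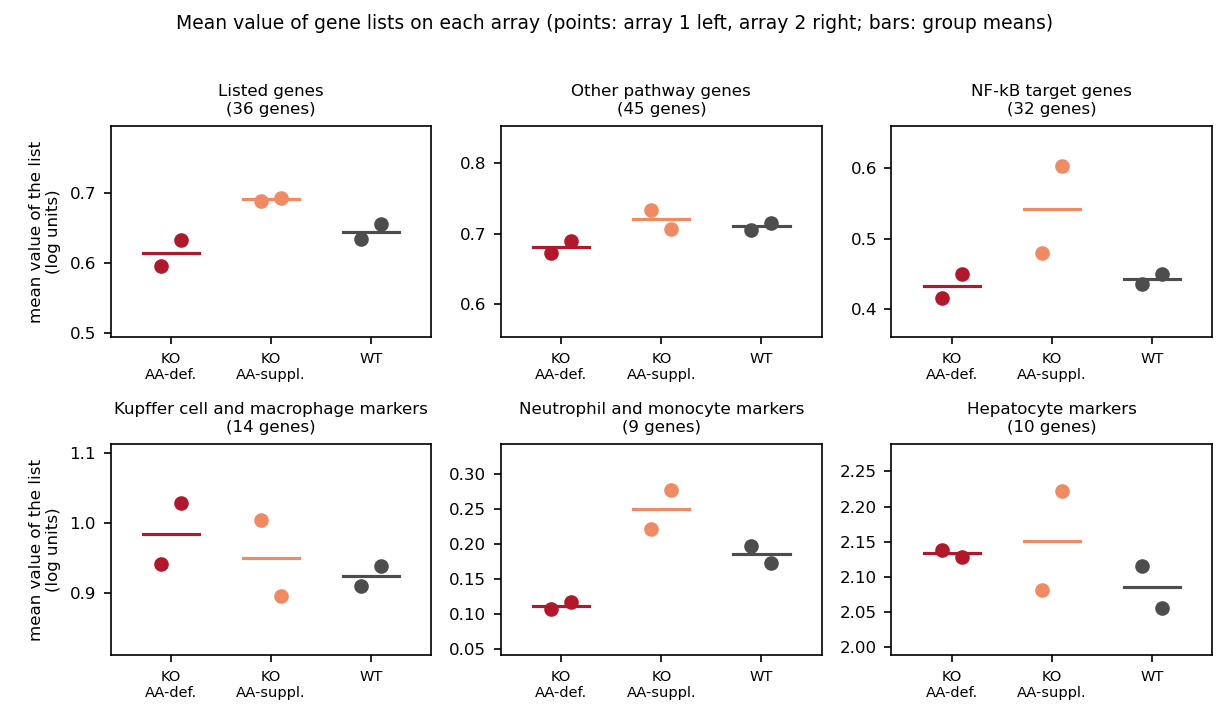
Mean deposited value (vertical axis, log units) of 6 gene lists on each array, with array 1 left and array 2 right in each group and bars at the group means. All panels span the same height. The means of the 36 listed genes are 0.596 and 0.632 in AA-deficient knockouts, below 0.688 and 0.693 in AA-supplemented knockouts, and the NF-kB targets stand highest on AA-supplemented array 2 (0.604).

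Markers of other liver cells were set beside them. Between the knockouts, 6 of 8 liver endothelial markers were higher in the AA-deficient group (median 0.062), and 0 passed. At an unadjusted p under 0.05, 3 of the 8 were higher (Kdr, Tek and Eng) and 0 lower, where 5.38% of all genes were higher and 4.54% lower. In AA-deficient knockouts against wild type 6 of the 8 were higher (median 0.083), where 48.5% of all genes were. The 2 lower ones were Pecam1 and Clec4g, with a difference of -0.07 each. Stab2, a scavenger receptor of sinusoids, rose by 0.24 in AA-deficient knockouts against wild type (SE 0.045, adjusted p = 0.0320 in limma). That was 1 of 8 where 3.08% of all genes passed upwards. The calls of Slc40a1 and Stab2 were lost without any one AA-deficient or wild-type array (adjusted p from 0.101 to 0.243), without the filter (0.0895 and 0.0728) and with the replicate block (0.0967 and 0.0716), and that of Slc40a1 also after centring (0.0503). Of 8 stellate cell markers 6 were higher in the AA-deficient knockouts than in the supplemented ones (median 0.026). At an unadjusted p under 0.05, 2 of the 8 were higher, where 5.38% of all genes were. Without AA-supplemented array 1, 3 were higher and 5 lower (median -0.027), and the median was 0.0056 without AA-deficient array 1. In limma 0 of the 8 passed in any comparison, Reln, Lrat, Col3a1 and Dcn included. Of 5 B and T cell markers tested, Cd3e, Cd79a, Cd4 and Cd8a among them, 0 passed in limma and 0 had an unadjusted p under 0.05 in any comparison. Of 10 hepatocyte markers, Apob, Cps1, Ttr and Hpd among them, 0 passed in any comparison. At an unadjusted p under 0.05 at most 1 was higher. Of all genes 11.8% were higher in AA-deficient and 6.78% in AA-supplemented knockouts against wild type. The medians of the hepatocyte markers moved with single arrays. The median was -0.030 between the knockouts, 0.051 with AA-supplemented array 2 left out and -0.11 with AA-supplemented array 1 left out. It was 0.040 in AA-deficient knockouts against wild type, and 0.0078 without wild-type array 2. In AA-supplemented knockouts against wild type it was 0.050, and it was -0.016 with AA-supplemented array 2 left out and 0.13 with array 1 left out.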

How the data were processed

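The deposited table holds 1 value per probe set and array. The values are taken as log10 from their range (-0.58 to 2.51), since no source used here states the software, normalisation or log base behind these deposited log10 values. Of 34760 probe sets, 3995 held no value and were left out. Per the labels' protocols, RNA was extracted with ISOGEN and labelled with a GeneChip WT Terminal Labeling kit. Gene symbols came from the platform's annotation (21161 with 1 symbol, 1150 with several, 8454 with none), checked against RefSeq (GRCm38.p6) by Entrez identifier, where 21079 matched.

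The 19550 genes were filtered at the 25th percentile of their mean, and limma 3.58.1 under R 4.3.3 tested the remaining 14662 (lmFit and eBayes, all 6 arrays in one fit, 3 residual and 4.89 prior degrees of freedom). The test was run on the values as deposited, with no pseudocount. P-values are two-sided, adjusted by Benjamini-Hochberg over all genes tested, and passed under 0.05. The fit was tested on simulated data. No depth exists for arrays, and their number limits the precision.

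The members, the lists (other pathway genes, NF-kB targets and markers of 6 cell classes) and the tests were chosen with earlier results of these data known. Values on all 6 arrays are given for listed genes that passed and the 12 of smallest p, and for some further genes described by role. Of each other list the genes that passed and up to 4 of smallest p are named, some without values by array (Slc40a1 and Stab2 among them). Genes beyond that rule were chosen after their values were seen. They are given by array (Tlr9 and Cd14), by mean or range (S100a8, Itgam, Cxcr2, Ly6g and Mpo) or by difference (Pecam1 and Clec4g). Alternatives changed the filter, normalisation, spread estimate, probe set rule, arrays and replicate block.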

Additional observations from a re-analysis of the deposited data

How the results depend on the processing

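Between the knockouts, where 1 listed gene passed, 0 passed without the filter on dim genes, with only the 4 arrays compared or with the replicate block, and 3 passed with a trend in eBayes, with or without a robust fit (Tifa, Myd88 and Nfkbib). In AA-deficient knockouts against wild type, where 2 passed, 1 passed without the filter and 1 with the replicate block, 4 with a trend and 5 with a trend and robust fit. Leaving out single arrays gave 0 to 1 between the knockouts, 0 to 3 between the AA-deficient group and wild type, and 0 between the AA-supplemented group and wild type. Listed genes that were lower numbered 20 to 26 between the knockouts and 17 to 21 in AA-deficient knockouts against wild type, and 22 to 26 were higher when AA-supplemented knockouts were set against wild type, in counts without single arrays that were added after the data were seen. Without single arrays the median difference of the listed genes ran from -0.075 to -0.037 between the knockouts. It ran from -0.037 to -0.0074 between AA-deficient knockouts and wild type, and from 0.031 to 0.067 between AA-supplemented knockouts and wild type. With a filter at the 50th percentile it was -0.023 between AA-deficient knockouts and wild type. The median over the listed genes of array 1 minus array 2, taken within each group, gave an SD of 0.013. Differences of opposite sign cancel in that SD, so it is neither the spread of single genes between replicates nor the error of these medians. Over all genes, 30 passed between the knockouts, 0 without the filter, 51 with a filter at the 50th percentile, 56 after centring, 11 after quantile or cyclic loess normalisation (the loess added after the data were seen), 154 with a trend, 177 with a trend and robust fit, 4 with the replicate block and 0 to 46 without single arrays. In AA-deficient knockouts against wild type 679 passed, and 173 did without the filter, 1057 at the 50th percentile, 1271 with a trend, 1312 with a trend and robust fit, 1031 with only the 4 arrays, 163 with the block and 1 to 1031 without single arrays. In AA-supplemented knockouts against wild type 1 passed, and 8 did after centring, 94 with a trend, 116 with a trend and robust fit, 3 with the block and 1 to 7 without single arrays.

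Equal replicate numbers did not pair the arrays. Deviations of array 1 from its group mean correlated at -0.369 between the knockouts and 0.358 between AA-deficient knockouts and wild type. Between AA-supplemented knockouts and wild type they correlated at -0.284. AA-supplemented array 2 thus varied with array 1 of the other groups, which the block, set by replicate number, did not follow. Under the block Tifa had an adjusted p = 0.0582 between the knockouts and 0.0171 against wild type in limma, and Nfkbib 0.0868, Slc40a1 0.0967 and Stab2 0.0716 against wild type. Of the repeats for the 12 genes of smallest p, 537 kept direction and side of the threshold, 13 gained a call and 15 lost one. The 5 that changed sign were differences near 0: Nfkb2 in AA-deficient knockouts against wild type (0.02, and -0.03 without AA-deficient array 2 or -0.01 without wild-type array 1, in a range up to 0.06) and, between AA-supplemented knockouts and wild type, Nfkbib (0.02, and -0.01 without AA-supplemented array 2 or wild-type array 1, in a range up to 0.06) and Tifa (-0.01, and 0.05 without wild-type array 2, in a range down to -0.07). The cause was not tested. Each of the 36 listed genes with a value has 1 probe set, so averaging probe sets changes none of their values.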
